A study of Mus musculus with 2 samples.

Results

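The genes described here are 10 neural splicing regulators, RNA-binding proteins that select exons in developing neurons: Ptbp1, Ptbp2, Nova1, Nova2, Rbfox1, Rbfox2, Rbfox3, Srrm4, Elavl3 and Elavl4. They were taken by name, with gene identifiers matched to GENCODE mouse symbols, and all 10 were found among the 43346 genes measured. The tissue was hindbrain of mouse embryos of strain B6NCrl at 14.5 days of development, without treatment or genetic change, and 2 biological replicates formed 1 group. The labels call each replicate the hindbrain of 1 pup, collected on different days. They also describe its sex as pooled and give both replicates the same donor identifier, so the SD over n = 2 may not span separate donors. Each library was made from 10 ng of total RNA longer than 200 nt with spike-in RNA added, and expected counts over all genes summed to 33727977 in replicate 1 and 32450699 in replicate 2.

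Splicing regulators of neurons work largely by binding short sequence elements in and around alternative exons. Ptbp1, abundant in progenitors and non-neural cells, binds pyrimidine-rich RNA and represses neuronal exons, among them an exon of its paralog Ptbp2; when that exon is skipped, Ptbp2 mRNA is degraded by nonsense-mediated decay. As neurons form, miR-124 lowers Ptbp1 and Ptbp2 takes over, with a partly different set of repressed exons. Nova proteins bind clusters of a pyrimidine, CA and a pyrimidine; Rbfox proteins bind GCATG; Srrm4 drives inclusion of microexons, the very short exons of neuronal transcripts; and the neuronal Elavl (Hu) proteins bind U-rich RNA, which affects splicing as well as mRNA stability. Several of these genes also carry alternative exons that change or end their own protein.

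The exons that carry such choices are shown first because the inclusion values below refer to them. Sequences are from GENCODE M21 transcripts, on the build GRCm38, in the direction of the transcript. The first pair is the 34 nt exon of Ptbp1 and its counterpart in Ptbp2, exon 10 of 14 in the transcripts Ptbp1-216 and Ptbp2-201. They lie at chr10:79862014-79862047 on the plus strand and chr3:119724612-119724645 on the minus strand. Both are within the coding sequence, and a length of 34 nt is not a multiple of 3, so that skipping shifts the reading frame. Capitals mark the 8 positions that differ, and 76.5% of positions were identical.
Ptbp1: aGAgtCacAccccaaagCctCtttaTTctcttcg
Ptbp2: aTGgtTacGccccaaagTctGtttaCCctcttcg

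The 93 nt exon of the Rbfox genes encodes part of the RNA recognition motif, and proteins made without it bind RNA poorly. It lies at chr16:7292185-7292277 (plus strand) in Rbfox1, chr15:77105577-77105669 (minus strand) in Rbfox2 and chr11:118502842-118502934 (minus strand) in Rbfox3. Capitals mark the 26 positions at which the 3 genes are not all alike. Rbfox1 and Rbfox2 were identical at 92.5% of positions, and each was identical to Rbfox3 at 74.2%.
Rbfox1: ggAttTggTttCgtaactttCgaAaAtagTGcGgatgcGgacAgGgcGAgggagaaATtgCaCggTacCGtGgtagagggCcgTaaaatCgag
Rbfox2: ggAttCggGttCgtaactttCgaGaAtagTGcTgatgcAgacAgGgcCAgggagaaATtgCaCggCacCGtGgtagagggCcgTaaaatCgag
Rbfox3: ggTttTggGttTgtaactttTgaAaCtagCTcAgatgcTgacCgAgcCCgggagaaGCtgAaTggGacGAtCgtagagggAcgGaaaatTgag

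In the Elavl genes the compared exon has 39 nt and encodes part of the linker before the last RNA recognition motif. It lies at chr9:22024674-22024712 in Elavl3 and chr4:110209740-110209778 in Elavl4, both on the minus strand. Capitals mark the 4 differing positions, with 89.7% of positions identical.
Elavl3: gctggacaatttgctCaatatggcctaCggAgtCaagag
Elavl4: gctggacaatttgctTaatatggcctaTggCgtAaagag

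Nova1 protein is known to repress an exon of its own transcript, the 72 nt exon 4 of Nova1-201 at chr12:46713498-46713569 on the minus strand. Capitals mark copies of the Nova element, which is CA with a C or T on each side, searched on the transcript strand because Nova binds RNA. The exon holds 5 copies, 3 that end in T and 2 that end in C, none overlapping another. Of 1216 annotated internal coding exons of the same length, 69.1% hold at least 1 copy, with a median of 1, and 0.987% hold 5 or more. A match is a description of the letters and not evidence of binding in this tissue.
Nova1: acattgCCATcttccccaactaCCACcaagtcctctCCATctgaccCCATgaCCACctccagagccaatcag

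All 10 regulators were expressed. Levels are given as TPM, transcript abundance corrected for length and library size, so that genes can be compared, and a gene was called detected at 1 TPM or more in both replicates. All 10 of 10 members met that limit, against 34.8% of all genes (15088 of 43346). The median member was at 72.5 TPM, and the median detected gene was at 17.19 TPM. By whole-gene TPM, the highest member, Elavl4, and the lowest, Srrm4, differed in mean level 21.1-fold. In bulk tissue, fewer cells of a type and less RNA per cell cannot be told apart.

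Among the Ptbp genes, the neuronal paralog was the more abundant. Ptbp2 was at 157.72 TPM in replicate 1 and 180.0 TPM in replicate 2 (168.9 ± 15.8, SD, n = 2). Ptbp1, the repressor of progenitors and non-neural cells, was at 45.86 and 48.08 TPM (46.97 ± 1.57, SD, n = 2). The ranges of Ptbp2 and Ptbp1 did not overlap, and the TPM of Ptbp2 was 3.59 ± 0.215 times that of Ptbp1 (SD, n = 2). With Ptbp3, a paralog first known from blood cells, at 19.44 and 19.35 TPM, Ptbp2 held 71.7% ± 1.43 of the summed TPM of the family (SD, n = 2), and Ptbp1 held 20.6% and 19.4% in replicates 1 and 2.

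Nova1 and Nova2, the paralogous RNA-binding proteins first found as targets of autoantibodies in a neurological disease, were unequally expressed. Nova1 was at 82.92 and 81.89 TPM in replicates 1 and 2 (82.4 ± 0.728, SD, n = 2). Nova2 was at 16.42 and 17.46 TPM (16.94 ± 0.735, SD, n = 2). Nova1 was higher in both replicates, by 4.87 ± 0.254 times (SD, n = 2), and held 82.9% ± 0.739 of the pair's TPM. In mice, Nova1 is known to predominate in hindbrain and ventral spinal cord, and Nova2 in neocortex.

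Rbfox1 led its family by whole-gene TPM. It was at 122.79 and 125.81 TPM (124.3 ± 2.14, SD, n = 2). Rbfox2, which many cell types besides neurons express, was at 58.93 and 66.11 TPM (62.5 ± 5.08, SD, n = 2). Rbfox3, the NeuN antigen used as a marker of postmitotic neurons, was at 53.88 and 51.48 TPM (52.7 ± 1.70, SD, n = 2). The ranges of the 3 genes did not overlap, and their shares of the family's TPM were 51.9% ± 0.304, 26.1% ± 1.52 and 22.0% ± 1.22 for Rbfox1, Rbfox2 and Rbfox3 (SD, n = 2). Expected counts, which are not corrected for length, were 4626 and 4305 for Rbfox1 and 8196 and 8409 for Rbfox2. The lead of Rbfox1 rests on Rbfox1-202, a model of 1191 nt at 94.35 and 97.15 TPM. Its longer model, Rbfox1-201, was at 28.45 and 28.66 TPM.

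Srrm4, the microexon regulator also called nSR100, was the lowest member by whole-gene TPM, at 13.16 and 13.78 TPM (13.47 ± 0.438, SD, n = 2). That placed it at percentile 43.7 of the detected genes. Its paralog Srrm3, which also acts on microexons, was at 38.52 and 41.06 TPM. By gene TPM, Srrm3 was thus 2.95 ± 0.0372 times as high as Srrm4 (SD, n = 2). Expected counts, which are not corrected for length, were 948 and 945 for Srrm3 but 2067 and 1984 for Srrm4. How far short models raise the TPM of Srrm3 was not tested.

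Elavl4, or HuD, was the highest member at the level of the gene, at 270.74 and 297.66 TPM (284.2 ± 19.0, SD, n = 2). Elavl3, or HuC, was at 82.73 and 86.86 TPM (84.8 ± 2.92, SD, n = 2). Elavl4 was 3.35 ± 0.109 times Elavl3 by gene TPM (SD, n = 2). Elavl2, or HuB, lay between them at 135.68 and 157.57 TPM, and Elavl1, the ubiquitous HuR, was below all 3 at 63.06 and 72.69 TPM. Of the family's summed whole-gene TPM, Elavl4 held 48.7% ± 0.432, Elavl2 25.1% ± 0.749, Elavl3 14.6% ± 0.603 and Elavl1 11.6% ± 0.286 (SD, n = 2). Expected counts were 10439 and 10103 for Elavl4 and 10637 and 11422 for Elavl2.

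**Figure D1:**
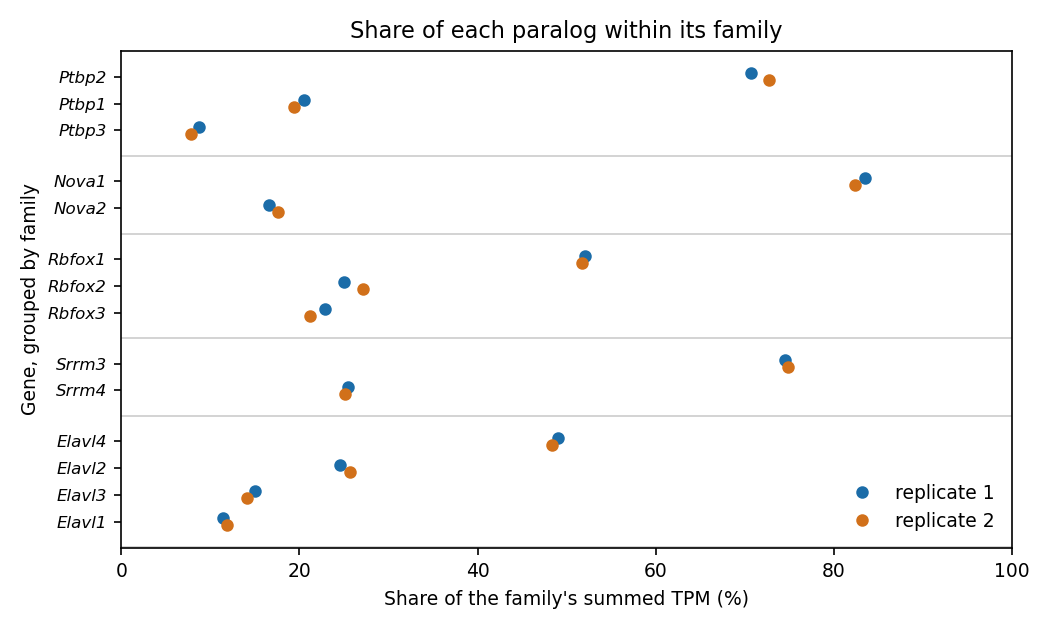
Share of each paralog in its family's summed TPM, in percent, with 1 point per replicate of E14.5 hindbrain. By whole-gene TPM, Ptbp2, Nova1, Rbfox1, Srrm3 and Elavl4 hold the top share of their families in both replicates. By expected counts, Rbfox1, Srrm3 and Elavl4 were below Rbfox2, Srrm4 and Elavl2 in both replicates. Srrm3, Ptbp3, Elavl1 and Elavl2 are not among the 10 members.

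From highest to lowest mean TPM, the order was Elavl4, Ptbp2, Rbfox1, Elavl3, Nova1, Rbfox2, Rbfox3, Ptbp1, Nova2 and Srrm4. Neighbours were called apart where neither the ranges over both replicates nor the deposited credibility intervals overlapped. That held for 7 of 9 neighbouring pairs. Elavl3 and Nova1 differed 1.03-fold and their ranges overlapped, and Rbfox3 and Ptbp1 differed 1.12-fold with overlapping intervals.

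This order depended on which transcript models were counted. Elavl4 has 12 models in the annotation, and its most abundant model by TPM was Elavl4-211, a processed transcript of 869 nt without an annotated coding sequence. Elavl4-211 was at 103.77 and 112.16 TPM and held 38.3% and 37.7% of the TPM of Elavl4 in replicates 1 and 2. The main complete coding model, Elavl4-202 of 4024 nt, was at 66.11 and 71.67 TPM. Models without a coding sequence held 50.1% and 52.8% of the TPM of Elavl4 but 18.8% and 19.9% of its expected counts, since a short model needs few reads to reach a high TPM. Summed over the 7 models with a complete coding sequence, Elavl4 was at 95.96 and 100.4 TPM, below Ptbp2 and below Rbfox1. That was also below the whole-gene TPM of Elavl2, at 135.68 and 157.57, for which no such sum was made. The sum over complete coding models was added as an alternative after the values had been seen.

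The other members were less affected by leaving out models without a complete coding sequence. Complete coding models held 100% of the TPM of Ptbp2, Nova1, Rbfox1, Rbfox2 and Elavl3 in both replicates. They held 98.9% and 99.0% for Srrm4, 90.2% and 88.9% for Rbfox3, and 82.0% and 84.2% for Ptbp1. Nova2 was the exception, because its main model, with 66.1% and 62.8% of the TPM, has no counterpart in GENCODE M21 and its coding status was not known here. The complete coding model Nova2-201 alone was at 5.57 and 6.49 TPM, which bounds the coding level of Nova2 from below and would put it under Srrm4 (13.01 and 13.64 TPM over complete coding models). Coding status here is that of GENCODE M21, whether or not the deposited transcript length matched it. Complete coding models of Nova1, Elavl3, Rbfox1, Rbfox2 and Srrm4 include ones of another deposited length, so their status in the authors' annotation is uncertain.

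**Figure D2:**
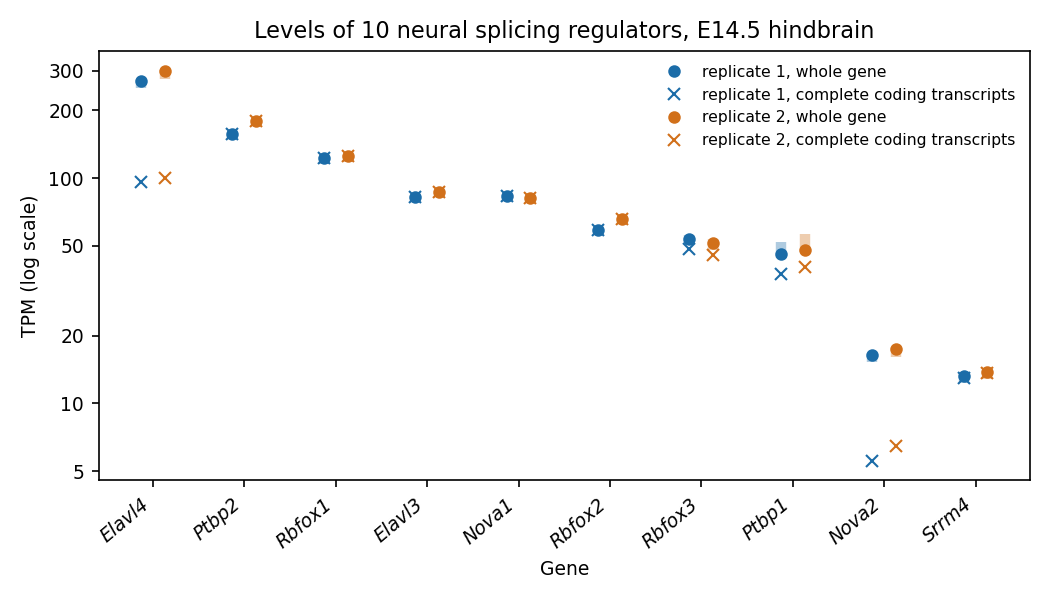
TPM on a log axis for the 10 genes, ordered by mean level, in replicates 1 and 2. Circles are whole genes, shaded bars the deposited credibility bounds around the posterior mean, and crosses the sum over transcripts with a complete coding sequence; Elavl4 drops to 95.96 and 100.4 TPM when that sum is used, and Nova2 to 5.57 and 6.49 TPM.

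**Figure D3:**
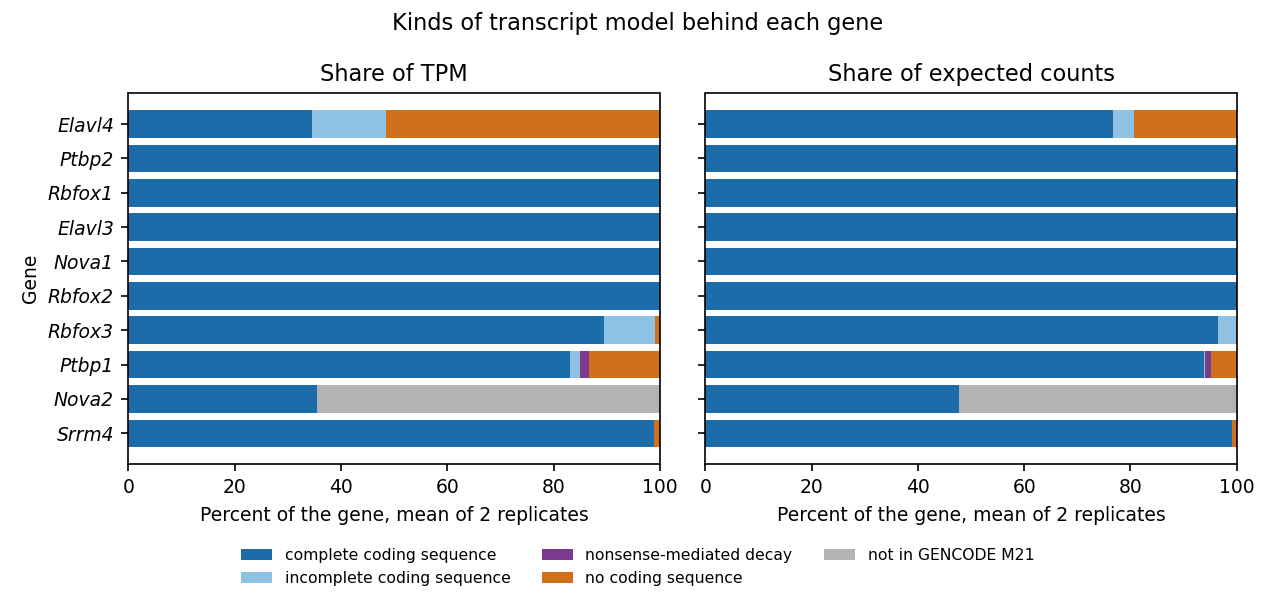
Percent of each gene's TPM (left) and expected counts (right) held by each kind of transcript model, as means of both replicates. For Elavl4, models without a coding sequence hold 50.1% and 52.8% of the TPM in replicates 1 and 2 but 18.8% and 19.9% of the counts; grey marks the Nova2 model that GENCODE M21 lacks.

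Transcript use was concentrated in 7 of 10 members, whose most abundant model held at least 50% of the gene's TPM in both replicates. For Ptbp2, Nova1 and Elavl3 this is fixed by the annotation, which gives each gene 1 model. Inclusion of the Ptbp2 exon of 34 nt, the Nova1 exon of 72 nt and the Elavl3 exon of 39 nt therefore could not be measured from these tables. Srrm4-201 held 98.5% and 99.0% of Srrm4, and Rbfox1-202 held 76.8% and 77.2% of Rbfox1. Rbfox2-203 held 63.2% and 57.4% of Rbfox2, the widest gap between replicates among the members, 5.76 percentage points. The 3 members without such a model were Elavl4, Ptbp1, whose main model Ptbp1-216 held 39.2% and 41.3%, and Rbfox3, whose main model Rbfox3-204 held 27.9% and 25.6%.

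Inclusion of an annotated internal exon was taken as the summed TPM of transcripts that hold it, over that of transcripts that hold it or skip it. It is an estimate from whole-transcript abundances and not from junction reads. Of 10 such exons in the members, 9 had at least 5 TPM behind them in both replicates, in Ptbp1, Rbfox3 and Elavl4.

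Ptbp1 was divided between forms with and without its 78 nt exon. This exon, at chr10:79860117-79860194 on the plus strand, lies between the sequences for the second and the third RNA recognition motif, and skipping it is known to weaken repression by Ptbp1. Its inclusion was 48.5% in replicate 1 and 47.6% in replicate 2 (48.0 ± 0.675, SD, n = 2). The form that holds the exon, Ptbp1-216, was at 17.99 and 19.85 TPM, and the skipping forms Ptbp1-202 and Ptbp1-206 were at 14.32 and 14.18 TPM and at 5.30 and 6.43 TPM. The exon reads as follows in the transcript.
Ptbp1: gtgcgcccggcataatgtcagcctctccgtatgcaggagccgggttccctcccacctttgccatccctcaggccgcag

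The frame-shifting 34 nt exon of Ptbp1 was included almost throughout, at 100% and 96.1%. In replicate 2 the skipped share came from Ptbp1-201, a model annotated for nonsense-mediated decay, at 1.66 TPM against 0 TPM listed in replicate 1. Its deposited credibility interval in replicate 2 ran from near 0 to 3.87 TPM and overlapped that of replicate 1, so the replicates were not told apart. Such decay products are unstable, and their steady level is not a rate of skipping. A 31 nt coding exon of Ptbp1 was at 100% and 95.5%, a 117 nt exon outside the coding sequence at 0.652% and 0%, and a 30 nt exon was listed at 0% in both replicates.

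The RNA recognition motif exon of Rbfox3 was included at 99.3% and 100%. Rbfox3-202, the complete coding form without it, was at 0.34 TPM in replicate 1 and listed at 0 in replicate 2. The measured models of Rbfox1 and Rbfox2 all hold this exon, with or without a check that the deposited transcript length equals the annotated exon sum, so its inclusion has no value there. Near the 3′ end of the coding region, Rbfox3 has an exon with a long form of 181 nt and a short form of 40 nt, which differ by 141 nt, a multiple of 3. Complete coding models with the short form held 63.3% and 61.6%, and those with the long form 36.7% and 38.4%. A separate 40 nt exon in the 5′ part of Rbfox3, outside the coding sequence, was included at 82.9% and 84.2%.

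Without the length check, a 40 nt coding exon of Rbfox2 had an inclusion of 63.2% and 57.9%. This value rests on 3 Rbfox2 models whose deposited length differs from the annotated one, so their structure in the authors' annotation is uncertain.

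The 39 nt linker exon of Elavl4 was included at 97.6% and 97.8%. Its only skipping model, Elavl4-207, was at 4.71 and 4.66 TPM. With protein-coding and nonsense-mediated decay models alone, which leaves out Elavl4-211, its mean inclusion was 95.2%. Complete coding forms of Elavl4 also differ in where the last exon begins, with an acceptor that adds 42 nt. Over complete coding models, the longer last exon was used in 88.8% and 87.4%. When Elavl4-211 was counted too, which begins its last exon at the shorter position, the share of the longer form was 42.7% and 41.3%. That value therefore turned on how the processed transcript was read. Among first exons, the one shared by Elavl4-202 and Elavl4-204 held 71.4% and 74.7% of complete coding TPM. An 87 nt exon of Elavl4 held only by incomplete models was at 17.5% and 15.3%.

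Exons of known target genes were examined next, since they are the sequences on which these regulators act. The 5 target lists name 29 genes besides the members. Of these, 20 had at least 1 measured coding cassette exon, with 165 exons in all, and 52 of them lay between 10% and 90% inclusion in both replicates. Exons of at most 27 nt numbered 18, of which 17 had a length that is a multiple of 3 and 11 lay between 10% and 90%. The exons named below were chosen from these after their values had been seen. Short alternative exons, which hold the choices described, read as follows.
Src, chr2:157458843-157458860, plus strand: gaggaaggtggatgtcag
Agrn, chr4:156168546-156168569, minus strand: cgagctgaccaatgagatcccagc
Agrn, chr4:156167777-156167809, minus strand: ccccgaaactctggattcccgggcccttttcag
Cpeb4, chr11:31918801-31918824, plus strand: caaggacttatgggcgaaggagag
Eif4g1, chr16:20674786-20674806, plus strand: ggaggattcaggtctctgcag
Mef2d, chr3:88161781-88161801, plus strand: actgaggaccatttagatctg

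Exons of Src and Cltb, targets of Ptbp proteins, showed intermediate inclusion. In the list of Ptbp targets besides the members, 3 of 5 measured coding exons lay between 10% and 90% in both replicates. The 18 nt exon of Src, the neuron-specific N1 exon that Ptbp1 represses, was included at 55.4% and 47.2% (51.3 ± 5.78, SD, n = 2). The 54 nt exon of Cltb, the neuronal insert of clathrin light chain B, was at 60.6% and 60.5%. For Src replicate 1 was the higher, and the Cltb values almost coincided.

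Among Nova targets, agrin is the best known, because Nova controls the Z exons that give neuronal agrin its power to cluster acetylcholine receptors at the neuromuscular junction. The 24 nt Z exon of Agrn was included at 77.6% and 74.3%, and the 33 nt Z exon at 18.3% and 19.0%. A 12 nt exon of Agrn further upstream was at 55.0% and 51.7%. By these models most Agrn RNA held the shorter Z exon, and the longer one was in a minority of transcripts. The shorter Z exon is held by Agrn-203, at 16.56 and 16.97 TPM in replicates 1 and 2, and by Agrn-205. Models that skip it were at 20.22 and 22.99 TPM, so its majority rests on Agrn-205. Agrn-205 is not among the models that hold or skip the 12 nt exon upstream. In Mapk9, which encodes the kinase JNK2, a pair of 72 nt exons that are alternatives to each other were at 73.2% and 75.2% for the upstream exon and 20.8% and 21.6% for the downstream one.

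Rbfox targets gave a mixed picture. In Grin1, the essential subunit of NMDA receptors, the 63 nt N-terminal exon was included at 28.6% and 28.9%, and the 111 nt C-terminal exon at 19.0% and 17.7%. In Snap25, a SNARE protein of synaptic vesicle release, the 118 nt exons that are alternatives to each other were at 3.91% and 3.93% for the upstream exon and 96.1% and 96.1% for the downstream one. A 57 nt exon of Enah, an actin regulator, was at 0.803% and 0.761%, at the skipped end of the range.

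Targets of Srrm4 spanned almost the whole scale. Of 7 measured coding exons of at most 27 nt in this list, the lowest, at a mean inclusion of 0%, is not named here. The 6 nt exon of Apbb1, which encodes an adaptor of the amyloid precursor protein, was included at 94.2% and 93.2%. The 21 nt exon of the translation factor gene Eif4g1 was at 55.6% and 60.7%, and the 24 nt exon of Cpeb4, a regulator of polyadenylation and translation, at 54.6% and 56.7%. The 21 nt exon of the transcription factor gene Mef2d was at 18.7% and 16.2%. Also low were a 6 nt exon of Unc13b, a synaptic vesicle priming factor, at 13.3% and 17.3%, and the 15 nt exon of the endocytic scaffold gene Itsn1, at 7.22% and 7.02%. The ranges over both replicates overlapped between Eif4g1 and Cpeb4 and between Mef2d and Unc13b, and not between other pairs of these 6 exons.

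**Figure D4:**
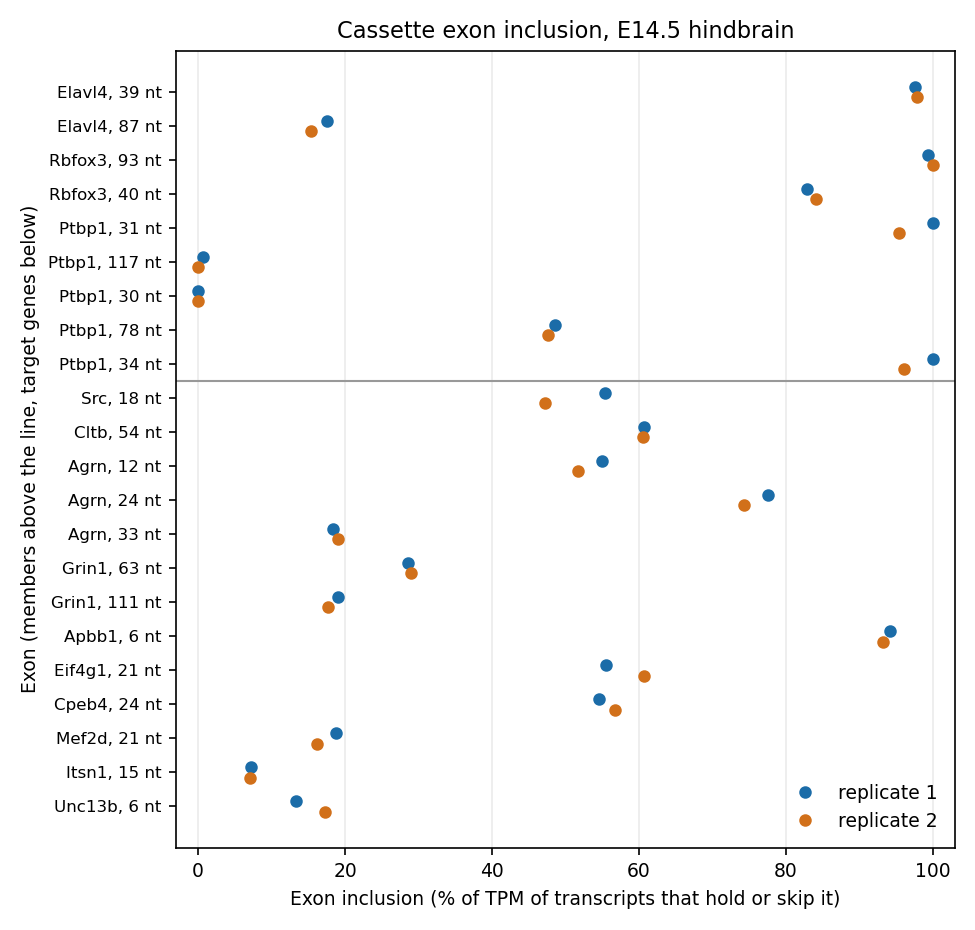
Inclusion of cassette exons in percent of the TPM of transcripts that hold or skip them, with 1 point per replicate; members are above the line and target genes below it. Coding exons of Rbfox3 (93 nt) and Elavl4 (39 nt) lie above 97%, and the 78 nt exon of Ptbp1 is at 48.5% and 47.6%. The Srrm4 target exons named in the text range from Itsn1 at 7.22% and 7.02% to Apbb1 at 94.2% and 93.2%.

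Over all genes of at least 10 TPM, 376 annotated coding cassette exons of at most 27 nt could be measured, in 259 genes. Their median inclusion was 43.6% in replicate 1 and 42.2% in replicate 2, and 76.6% of them had a length that is a multiple of 3. The 6680 longer cassette exons had a median inclusion of 94.2% and 93.9%, and 47.6% had such a length. Whether the classes differ in the kinds of model that skip their exons was not tested. With protein-coding and nonsense-mediated decay models alone, an alternative added after the values had been seen, the medians were 41.3% for microexons and 92.1% for longer exons. This is a description across exons of 1 tissue and was not tested.

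**Figure D5:**
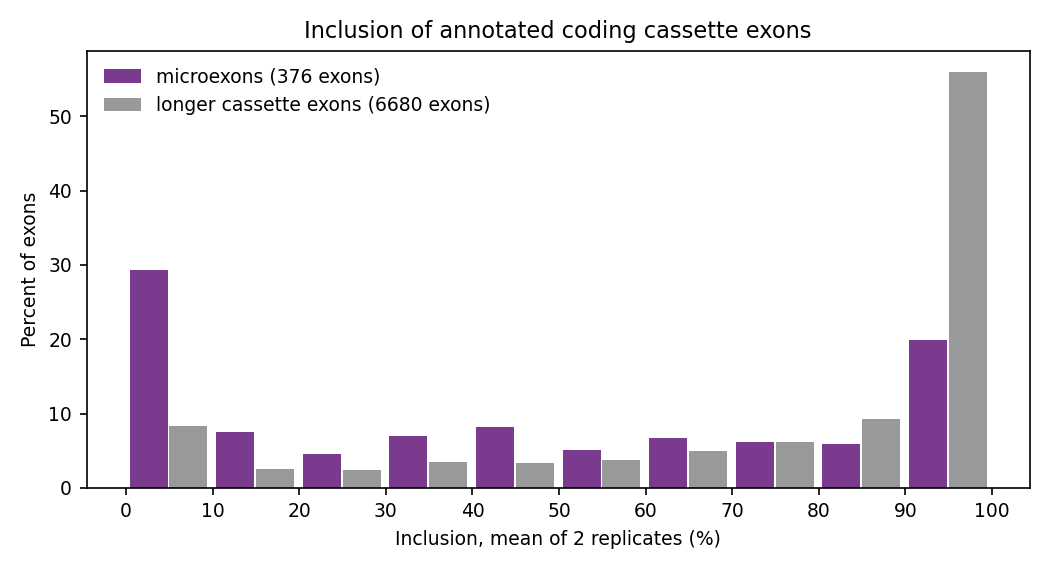
Distribution of inclusion, in bins of 10 percentage points, for 376 annotated coding cassette exons of at most 27 nt and 6680 longer ones in genes of at least 10 TPM; bars are percent of exons in each class and inclusion is the mean of both replicates. Of the microexons, 29.3% lie below 10% inclusion and 19.9% at 90% or above, against 8.31% and 56.0% of longer exons.

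Members varied little between the replicates. The median coefficient of variation was 3.39% over the 10 members and 7.26% over all detected genes. The 2 sets were not matched for level, with median TPM of 72.5 and 17.19, so these values are not a like-for-like contrast. In an exact two-sided binomial test of expected counts, scaled by each library's gene total, 4 of 10 members passed an adjusted p of 0.05, against a background of 34.4% of 17664 genes tested. This test compares 2 libraries and not conditions, and its p-values measure counting noise alone. Ptbp2 and Rbfox2 were higher in replicate 2, 2 of 10 members against 15.7% of all genes in that direction, and Nova1 and Rbfox3 were lower. The log2 count ratio of replicate 2 over replicate 1 was 0.12 for Ptbp2 (adjusted p = 2.3e-08, exact binomial test) and -0.13 for Rbfox3 (adjusted p = 0.0072). No member reached a 1.5-fold difference. By the deposited credibility intervals, which rest on TPM, Ptbp2, Rbfox2, Elavl3 and Elavl4 were separate between replicates, 4 of 10 against 24.7% of 15088 detected genes.

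The split of called genes by direction depended on the scaling. Of the members called above, Ptbp2 and Rbfox2 were called higher in replicate 2 under each scaling. Rbfox3 was lower under each, and Nova1 changed sign with the spike-in total alone. Scaled by gene totals, 2779 of the called genes were higher in replicate 2 and 3300 lower. With TMM factors the split was 3669 and 2599, with DESeq2 size factors 3452 and 2753, and with the spike-in total 6216 and 1495. The spike-in scaling put the median log2 ratio of detected genes at 0.11, against -0.01 with gene totals. Under it 8 of 10 members were called, against 43.7% of all genes tested, all higher in replicate 2, and Nova1 and Rbfox3 were not among them.

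Paralogs and partners of the members were all expressed. Of 6 such genes, all 6 were detected, with Elavl2 (146.6 TPM), Elavl1 (67.9 TPM) and Srrm3 (39.8 TPM) the highest by mean level. By the same exact binomial test 3 of 6 were called higher in replicate 2 and 0 lower, against 15.7% and 18.7% of all genes tested. They were Elavl1, Elavl2 and Raver2, a partner of Ptbp1. Over all 6 paralogs and partners the median log2 TPM ratio was 0.15, against 0.04 over all genes tested. Of 21 other tissue-specific or general splicing regulators, 17 were detected, led by Rnps1 (211.9 TPM), a component of the exon junction complex, Celf4 (154.5 TPM), an RNA-binding protein enriched in brain, and Srsf11 (154.2 TPM), an SR protein. Of the 19 tested in this list, 3 genes were called higher in replicate 2 and 5 lower, against the same background, with a median log2 TPM ratio of 0.02. The 4 not detected were Mbnl3 at 0.84 and 0.77 TPM, the epithelial regulators Esrp1 at 0 and 0.09 TPM and Esrp2 at 0.14 and 0 TPM, and the muscle regulator Rbm20 at 0.65 and 0.63 TPM.

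Genes upstream of the switch were present too. Rest, the repressor that keeps neuronal genes, Srrm4 included, silent outside neurons, was at 6.78 and 6.80 TPM. The host genes of miR-124 and miR-9, microRNAs that promote neuronal fate, were at 71.15 and 54.23 TPM for Mir124-2hg, 33.54 and 26.57 TPM for Mir124a-1hg, and 50.52 and 41.83 TPM for Mir9-3hg. These are levels of host RNA and not of mature microRNA. All 3 host genes were called lower in replicate 2, with log2 count ratios of -0.36 for Mir124-2hg, -0.38 for Mir124a-1hg and -0.37 for Mir9-3hg, and 0 of the 5 genes in this list were called higher (median log2 TPM ratio -0.27), where 18.7% of all genes tested were lower and 15.7% higher. Ptbp1, which miR-124 represses, was at 45.86 and 48.08 TPM and was not called.

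Marker genes matched the label as against forebrain, and show the mixture of cells in which these levels were measured. No list of midbrain or spinal cord markers was examined. All 9 hindbrain position genes were detected, led by Hoxa5 (141.6 TPM), and 1 of 7 forebrain markers, Lhx2, at 10.42 and 15.12 TPM; Emx1 was listed at 0 in both replicates. Of the hindbrain genes, 7 of 9 were called lower in replicate 2 and 0 higher, against 18.7% and 15.7% of all genes tested, with a median log2 TPM ratio of -0.15. All 10 neuron markers were detected, with summed TPM of 5553 and 5971, and all 10 progenitor markers, with 2671 and 2709. All 10 markers of blood, vessel, immune, connective tissue and choroid plexus cells were detected as well, with summed TPM of 4414 and 3946. Of these, Hba-a1 of red blood cells was at 1952 and 2267 TPM, Ttr of choroid plexus at 1825 and 1094 TPM, and Col3a1 of connective tissue at 307.93 and 260.06 TPM. Their part in the levels of members that non-neural cells also express, such as Ptbp1 and Rbfox2, was not tested, nor was that of position genes in the differences between replicates.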

How the data were processed

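Total RNA-seq of 2 hindbrain replicates was analysed from the deposited gene and transcript tables. Per the file headers and notes deposited with them, reads were assigned to mm10 with annotation M4; aligner, quantification tool and strandedness were not stated in the files or labels read for this work. The deposited expected counts were estimated by the authors per gene and transcript, without normalisation. The authors scaled the deposited TPM and FPKM to the whole feature set, including 96 spike-ins that held 8.15% and 7.72% of TPM. Deposited credibility bounds are score values of unstated level that surround the posterior mean, so a TPM can lie outside them. The deposited isoform percentage (percent of a gene per transcript) was used only as an alternative.

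Symbols, coordinates and exon structures are those of GENCODE M21 on GRCm38 (mm10), matched on identifiers without version (42462 of 43346 genes). For inclusion and transcript forms, exons were taken from transcripts whose deposited length equalled the annotated exon sum, except where stated. These were 90.1% of the models found there. For the members, 51 of 53 transcripts were found and 44 matched. An exon counts as skipped by a transcript with exons on both sides of it and none overlapping it. Exon sequences were read from GENCODE M21 transcripts without this length check. Of the members' printed exons, those of Nova1-201 (7000 nt deposited, 7154 nt annotated) and Elavl3-201 (5027 and 5014 nt) are from models that did not match.

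With 1 group there is no comparison of conditions and no model with residual spread. For genes averaging 10 or more, rounded expected counts were compared between the libraries by an exact two-sided binomial test scaled by gene totals, with Benjamini-Hochberg adjustment over all 17664 genes and a threshold of 0.05; the test was tested on simulated data. No molecular identifiers are recorded, so the reads are not independent molecules, and intervals and tests cover counting error only. Log2 TPM ratios used a pseudocount of 1; count ratios are given where a call is reported. Members and lists were chosen with earlier results of these data known. Named were all members and, of other lists, the 3 highest genes by mean TPM and any below 1 TPM in a replicate; genes and exons outside this rule were named after their values were seen (Raver2, Ptbp3, Rest and the target exons). Values of a few listed genes are not reported here. Alternatives were FPKM, posterior means, rescaled TPM, other detection limits, filters and scalings (TMM from edgeR 4.0.16, DESeq2 1.42.0 size factors, spike-ins), other transcript sets, other exon length limits, and each replicate alone. Tests were run in Python 3.11.15 with scipy 1.17.1, tables were handled with pandas 2.3.3 and numpy 2.4.6, scaling factors were obtained in R 4.3.3, and figures were drawn with matplotlib 3.10.9.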

Additional observations from a re-analysis of the deposited data

How the results depend on the processing

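All 10 members stayed detected at 0.5 and 5 TPM, with FPKM, with posterior means and in each replicate alone, and the number of members with a main transcript of at least 50% was 7 under every alternative tried. With protein-coding transcripts alone the main models of Nova2 and Elavl4 changed. That of Nova2 is not in GENCODE M21, and that of Elavl4 is a processed transcript. Nova2 then had 1 model left, which fixed its share, and Elavl4 still did not reach 50% in both replicates. The mean over replicates of the median member level was 72.4 TPM (70.8 to 74.0 TPM in single replicates). It was 43.3 on the FPKM scale and 82.2 TPM after removal of spike-in and mitochondrial RNA, by construction of those units. The count of members called between replicates was 4 of 10, beside 34.4% of all genes; it was 8 with the spike-in total (43.7% of all genes) and 0 with a fold of at least 1.5 (5.95%). With the spike-in total the log2 count ratio of replicate 2 over replicate 1 turned positive for Nova1 (0.033), Rbfox1 (0.077), Srrm4 (0.12) and Elavl3 (0.12), and Rbfox3 lost its call with it and with TMM factors (adjusted p = 0.93 and 0.062, exact binomial test). Of 98 other listed genes tested 61 were called, beside 34.4% of all genes. The alternatives ran from 54 with TMM factors (35.5% of all genes) to 70 with the spike-in total (43.7%). The listed genes were not matched to all genes for count, so these values are not a like-for-like contrast. The mean of the median microexon inclusions was 42.9% (42.2% to 43.6% in single replicates), 32.8% for exons of at most 15 nt and 41.3% with coding and decay models alone. For longer exons it was 94.0% (93.9% to 94.2%), 93.4% for exons over 15 nt and 92.1% with coding and decay models alone. The number of member exons measured ranged from 7 to 10. No paired analysis was possible because the replicates form 1 group. Depth did not limit detection of members, of which the lowest, Srrm4 in replicate 2, had 1984 expected counts; assignment of reads among overlapping models limits transcript values, and 2 replicates limit every SD.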
